A study of Drosophila melanogaster with 36 samples.

Results

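The nuclear genes for the machinery of oxidative phosphorylation were followed through an arsenite stress and its recovery in cultured Drosophila melanogaster cells. Of the 17137 gene symbols counted, 80 were taken by their names, which begin with ND- (complex I), SdhA to SdhD (complex II), UQCR (complex III), COX and a digit (complex IV) or ATPsyn (complex V). Placed by symbol alone, they comprise 40 genes of complex I, 6 of complex II, 8 of complex III, 11 of complex IV and 15 of complex V. By their symbols, 62 are subunits and 18 are paralog copies, whose symbols end in L, L1 or L2. The rule uses symbols and no measured value, although the set was taken up with earlier results of these data known.

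Complex I takes electrons from NADH and complex II from succinate, both passing them to ubiquinone. Complex III hands them on to cytochrome c and complex IV to oxygen, while complexes I, III and IV pump protons across the inner mitochondrial membrane. Complex V, the ATP synthase, makes ATP as those protons flow back. Most subunits are encoded in the nucleus and imported as proteins, whereas a few of complexes I, III, IV and V are encoded in mitochondrial DNA, which were not analysed here. Arsenite binds thiols, including those of mitochondrial dehydrogenases, and in many cells it leads to stress granules, dense bodies in which untranslated messenger RNA gathers with its binding proteins.

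The 36 libraries came from S2R+ cells, a semi-adherent, blood-cell-like line derived from embryos, and formed 12 groups of 3 replicates. The sample titles read S2 cells. Each of 4 sets had a control, a stress group given 0.5 mM sodium arsenite for 3 h, and a recovery group given the same stress and then 3 h in fresh medium. The sets were cells with RNA interference against rasputin (Rin), whose human counterpart G3BP is needed for stress granules, cells with a mock interference (Mock), Click-iT captures of labelled RNA on beads, and cells with neither interference nor capture (WT). Rin, Mock and WT libraries, called the poly(A) libraries below, were selected for poly(A). For the Click-iT captures the labels carry the same poly(A) text but give total RNA as the molecule. Whether those captures were selected for poly(A) is therefore not settled. All sets were grown from the same line in Schneider's medium, so that what differs between lines was not sampled. The labels do not say that replicates were separate cultures, so p-values measure only the spread between these samples, which may be technical.

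Counts assigned to genes were 6897154 to 11211712 per Rin or Mock library, 169760 to 2746277 per Click-iT library and 6121664 to 8940613 per WT library. In the Click-iT libraries 70.2% to 94.2% of reads had several alignments and were not assigned, against 3.88% to 7.51% in the poly(A) libraries. A tested subunit or copy had a median of 970 counts per Rin or Mock library, 36 per Click-iT library and 681 per WT library. The biological coefficient of variation of the fits was 6.49% for Rin and Mock together, 42.8% for Click-iT and 2.85% for WT, so that the same shift is far easier to detect in WT than in Click-iT. The target of the interference, rin, stood at 295 ± 93.7, 203 ± 71.2 and 194 ± 54.0 CPM (counts per 1000000 assigned reads; SD, n = 3 each) in Rin control, stress and recovery. In Mock it stood at 900.2 ± 17.5, 816 ± 58.3 and 816 ± 31.0 CPM. Of 10 markers of fly blood cells, 9 averaged at least 1 CPM in the poly(A) libraries. NimC1, a defining phagocytic receptor of these cells, did not. The summed level of the 10 markers was lower under stress than in control in every poly(A) set, at 853 to 894 against 1333 to 1420 CPM in Rin, 784 to 953 against 1289 to 1371 CPM in Mock, and 3990 to 4145 against 5021 to 5224 CPM in WT. In recovery it was below control too, at 710 to 780 CPM in Rin, 815 to 828 CPM in Mock and 3883 to 3903 CPM in WT. Markers of cell types that the cultures should lack were read too. At least 1 CPM was averaged by 1 of 6 for testis germ line, 2 of 3 for neuron, and 1 of 3 each for muscle and fat body. The summed testis markers were higher under stress than in control. They stood at 127 to 136 against 74.5 to 88.4 CPM in Rin, 134 to 148 against 75.2 to 90.6 CPM in Mock, and 209 to 212 against 122 to 136 CPM in WT. The part of these marker levels in the results below was not tested. In whole-culture RNA, fewer cells of a type and less RNA per cell cannot be told apart. CPM were scaled within the Rin and Mock set, the Click-iT set and the WT set separately, so that levels across sets are set side by side only.

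Of the 62 subunits, 59 averaged at least 10 CPM in every poly(A) group. The other 3 were ND-AGGG, at about 1 CPM, ND-B8, with 9 counts over all 36 libraries, and ND-MNLL, with 0. ND-MNLL lies wholly within exons of CG45089 on the same strand, which also had 0 counts, so its level cannot be read from these files. All 18 paralog copies stayed below 10 CPM in the poly(A) groups, and 9 of the 80 genes had under 10 counts in all 36 libraries together. After the filter on low counts, 60 subunits and 4 copies were tested in Rin and Mock, 58 and 2 in Click-iT, and 59 and 2 in WT. Positions are given in build dm6: ATPsynbeta, the catalytic subunit of complex V, lies at 4:1031484-1034917 on the plus strand, and ND-75, the largest iron-sulfur subunit of complex I, at X:8248651-8251687 on the minus strand.

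The level per length of the 59 subunits spread over 19.1-fold in WT control cells. In WT control cells ATPsyngamma, the rotating stalk of complex V (3R:29747704-29749163, minus strand), had the highest level, at 1234 ± 14.7 TPM (counts per length, scaled to sum to 1000000; SD, n = 3). ATPsynbeta followed at 994 ± 2.51 TPM, ATPsynC, the proton-carrying ring (3R:31216145-31219630, minus strand), at 968 ± 14.3 TPM and COX7A, a small subunit of complex IV (3R:8339944-8341043, minus strand), at 959 ± 51.1 TPM. COX7A overlapped both ATPsynbeta and ATPsynC over its 3 libraries, whereas ATPsyngamma lay above all of them. The lowest of the 59 was ND-ASHI, an accessory subunit of complex I, at 64.5 ± 5.75 TPM. By complex, the median subunit stood at 138 TPM for complex I, 146 for complex II, 248 for complex III, 365 for complex IV and 354 for complex V. The subunits of complex I spread over 8.16-fold.

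**Figure D1:**
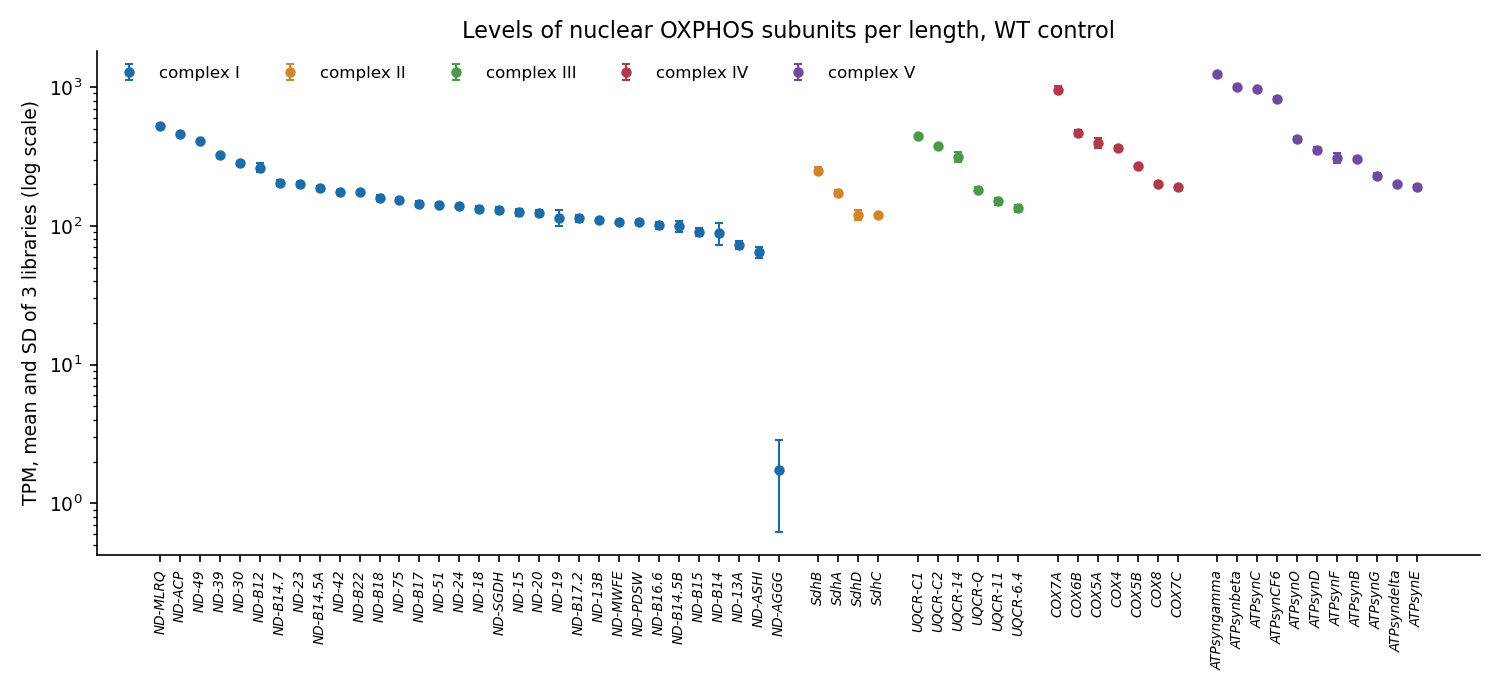
Level of each subunit in WT control cells in TPM on a log axis, by complex; points are means and bars SDs over 3 libraries. Complex IV and V subunits sit mostly above those of complexes I and II, and ND-AGGG, at 1.74 ± 1.12 TPM, stands far below the rest.

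Most subunits of complexes IV and V were called higher in WT cells under arsenite, and each tested subunit changed by under 1.5-fold. As a share of all gene counts complex V overlapped, at 0.442% to 0.456% in WT stress against 0.428% to 0.450% in WT control. Of the 61 genes tested, 33 rose and 2 fell in WT stress against WT control (edgeR's quasi-likelihood test, Benjamini-Hochberg adjusted p under 0.05 over all 8123 genes), while 30.3% of all genes tested rose and 30% fell. The median log2 fold change of the 61 was 0.14, against 0.01 over all genes. All 7 complex IV subunits rose, with a median of 0.28, as did 9 of 11 in complex V, 4 of 6 in complex III, 1 of 4 in complex II and 11 of 31 in complex I. Within complex I, 10 of 24 accessory subunits rose and none fell, whereas 1 of 7 core subunits rose and 2 fell. With libraries scaled by their total counts alone the split was 18 higher and 10 lower, with a median of 0.04 against -0.09 over all genes, of which 63.8% were called in either direction. With each library corrected for its own trend of counts with coding length, a step added after the data were examined, 13 were higher and 3 lower, while 61.3% of all genes were called in either direction.

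COX5B, a zinc-binding subunit of complex IV (2L:6557800-6559308, plus strand), had 117, 119 and 120.0 CPM in WT stress, against 91.7, 94.3 and 93.3 CPM in WT control. Each stress library lay above each control library (log2 fold change 0.36, SE 0.048, edgeR adjusted p = 2.94e-09). COX7A had 395, 426 and 383 CPM in WT stress, against 312, 333 and 299.6 CPM in WT control, again without overlap (log2 fold change 0.36, SE 0.040, edgeR adjusted p = 8.61e-11). COX4, the large nuclear subunit that wraps the core of complex IV (2L:19958713-19960065, plus strand), had 248, 269 and 250.3 CPM in stress, against 218, 212 and 205 CPM in control (log2 fold change 0.28, SE 0.040, edgeR adjusted p = 7.81e-09). COX5A, another nuclear subunit of the same complex, had 172, 192 and 169.7 CPM in stress, against 163, 145 and 138 CPM in control (log2 fold change 0.27, SE 0.050, edgeR adjusted p = 1.49e-05). The smallest shift in complex IV was that of COX6B, at 0.26 on the log2 scale. COX4, COX5A, COX5B and COX7A were still called with the length correction, at 0.14 to 0.20, and COX6B was not, at 0.07.

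In complex V the membrane subunit ATPsynG moved most, with 114, 101 and 103 CPM in WT stress, against 83.1, 89.7 and 83.1 CPM in control (log2 fold change 0.31, SE 0.054, edgeR adjusted p = 9.99e-07). ATPsynCF6, the coupling factor of the peripheral stalk, had a log2 fold change of 0.26, ATPsyngamma of 0.12 and ATPsynC of 0.13, and all of them passed the test. ATPsynC turned to -0.0027 and was not called with the length correction, and with total counts as the only scaling neither ATPsynC (0.03) nor ATPsyngamma (0.02) was. ATPsynbeta had 1119, 1170.5 and 1121 CPM in stress, against 1126, 1118 and 1109 CPM in control, and did not pass it (log2 fold change 0.03, SE 0.031, edgeR adjusted p = 0.427). ATPsynB, a stalk subunit, did not pass either (log2 fold change 0.10, SE 0.048, edgeR adjusted p = 0.072).

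Among the genes placed in complex I by symbol alone, ND-MLRQ (3L:23339326-23345936, plus strand) had the largest rise in WT stress. It had 159.8, 185 and 162 CPM in stress, against 139, 133 and 129 CPM in control (log2 fold change 0.35, SE 0.053, edgeR adjusted p = 4.77e-07). ND-75 was the lowest of these genes, with 177, 168 and 183 CPM in stress, against 199, 186 and 188 CPM in control, and no overlap (log2 fold change -0.12, SE 0.042, edgeR adjusted p = 0.0159). That call was lost without WT control replicate 1 (-0.09) or WT stress replicate 2 (-0.08), with the length correction (-0.06) and with DESeq2 (-0.11). ND-30, a core subunit of the hydrophilic arm, was the other gene called lower (log2 fold change -0.11), a call lost without WT control replicate 1 (-0.10), WT control replicate 2 (-0.10) or WT stress replicate 2 (-0.09) and with 5 other alternatives, DESeq2 and the replicate block among them (-0.10 to -0.11). ND-51, which binds NADH, ND-49, by the quinone pocket, and ND-20, an iron-sulfur subunit, had log2 fold changes of -0.09, -0.02 and 0.10, and none of the 3 passed the test.

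Among the smaller complexes, UQCR-Q of complex III (3L:17474761-17476124, plus strand) rose most, by 0.28 on the log2 scale, and was not called with the length correction (0.08). The core protein UQCR-C1 (3R:14890231-14892387, plus strand) had 355, 371 and 366 CPM in WT stress, against 347, 347 and 334 CPM in control (log2 fold change 0.09, SE 0.036, edgeR adjusted p = 0.0243), a call lost without WT control replicate 3 (0.07), WT stress replicate 2 (0.07) or WT stress replicate 3 (0.08), with DESeq2 (0.09) and with no filter (0.09), and turned to -0.0085 with total counts as the only scaling. UQCR-C2, the partner core protein, did not pass the test, at 0.05. In complex II the iron-sulfur subunit SdhB was called higher, at 0.14, a call lost without WT control replicate 2 (0.12), WT control replicate 3 (0.10) or WT stress replicate 3 (0.11), and with the length correction (0.09), total counts as the only scaling (0.04) and DESeq2 (0.14). The flavoprotein SdhA, which oxidises succinate, stood at -0.06 and the membrane anchor SdhD at -0.12, neither past the test.

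After recovery, WT cells parted by complex, with most complex IV subunits called above control and most core subunits of complex I below it. The split also ran along coding length. Of 45 subunits under 700 nt, 20 rose and 1 fell. Of the 8 from 700 nt to under 1400 nt none rose and 5 fell, and of the 6 of 1400 nt and over none rose and 4 fell. Whether complex or length sets the split was not tested. Of the 61 genes tested, 21 rose and 10 fell in WT recovery against WT control, while 35.2% of all genes rose and 33.5% fell, and the median of the 61 was 0.04. With total counts as the only scaling the split was 2 higher and 32 lower, with a median of -0.14 against -0.18 over all genes, so the direction of the set turned with the scaling (74.9% of all genes were called in that fit, in either direction). With the correction for coding length 9 were higher and 14 lower, where 69.9% of all genes were called. Complex IV had 6 of 7 subunits higher and none lower, with a median of 0.21, and complex V had 6 of 11 higher and 1 lower. Complex I had 6 of 31 higher and 7 lower. Of its 7 core subunits none rose and 5 fell, with a median of -0.15. Complex III had 2 of 6 higher and 1 lower, and complex II 1 of 4 lower.

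ND-30 (3L:3158485-3159578, minus strand) had 102, 94.7 and 106 CPM in WT recovery, against 132, 131 and 126 CPM in control, the largest fall among the subunits (log2 fold change -0.34, SE 0.048, edgeR adjusted p = 5.05e-09). Every recovery library lay below every control library. ND-75 had 166, 159.9 and 162 CPM in recovery, against the control values above (log2 fold change -0.21, SE 0.042, edgeR adjusted p = 1.55e-05). ND-51 (2L:6060842-6062757, minus strand) had 90.3, 89.7 and 86.2 CPM in recovery, against 111, 104 and 104 CPM in control (log2 fold change -0.23, SE 0.051, edgeR adjusted p = 5.05e-05). ND-49 fell by less, at -0.13, and ND-20 did not pass the test, at 0.06. On the other side, ND-B22, an accessory subunit, rose by 0.25 on the log2 scale and was the highest of complex I. About 26.1% of its exonic bases overlap CG31855. The named core subunits kept their calls with total counts and with the length correction, whereas ND-B22 was not called with total counts (0.08).

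COX7A had 416, 393 and 385 CPM in WT recovery and was the highest subunit of all, against the control values above (log2 fold change 0.36, SE 0.040, edgeR adjusted p = 4.39e-11). COX4 had 242, 251 and 245 CPM in recovery (log2 fold change 0.24, SE 0.040, edgeR adjusted p = 2.69e-07). COX5A, at 151, 149 and 144 CPM, was the one subunit of complex IV that did not pass the test (log2 fold change 0.02, SE 0.051, edgeR adjusted p = 0.775). ATPsynCF6 rose by 0.23 on the log2 scale and ATPsynC by 0.11, although ATPsynC had -0.06 with total counts as the only scaling and was not called with the length correction (0.03). With total counts COX4 (0.06) and ATPsynCF6 (0.05) were not called either. ATPsynbeta had 1052, 1038 and 1039 CPM in recovery and was called lower (log2 fold change -0.08, SE 0.031, edgeR adjusted p = 0.021), a call lost without WT recovery replicate 2 (-0.08) or WT recovery replicate 3 (-0.08). SdhD (3R:23759483-23760600, minus strand) had 46.3, 43.5 and 39.4 CPM in recovery, against 54.4, 46.2 and 50.9 CPM in control (log2 fold change -0.20, SE 0.069, edgeR adjusted p = 0.00938), a call lost without WT control replicate 1 (-0.15) or WT recovery replicate 3 (-0.14) and with DESeq2 (-0.21). UQCR-C2 was called lower, at -0.09, a call lost without WT control replicate 1 (-0.08), WT control replicate 2 (-0.09) or WT recovery replicate 2 (-0.06), with DESeq2 (-0.09) and with RLE size factors (-0.08).

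Set directly against stress, WT recovery had 1 gene higher and 21 lower of 61, while 18.1% of all genes were higher and 8.67% lower. The gene called higher was the copy ND-51L2, and the 21 called lower were all subunits, 11 of complex I, 3 of complex III, 2 of complex IV and 5 of complex V. Leaving out WT recovery replicate 2 took the count of called genes to 12, and DESeq2 called 1 higher and 10 lower, with 14.3% of all genes called in either direction. With the length correction 1 was higher and 13 lower, with 30% of all genes called. With total counts as the only scaling 1 was higher and 42 lower, with 41.8% of all genes called. COX5A was lower in recovery than in stress (log2 fold change -0.25, SE 0.050, edgeR adjusted p = 0.000109). ND-30, ATPsynbeta and ATPsyngamma, with log2 fold changes of -0.24, -0.11 and -0.12, were called lower as well.

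**Figure D2:**
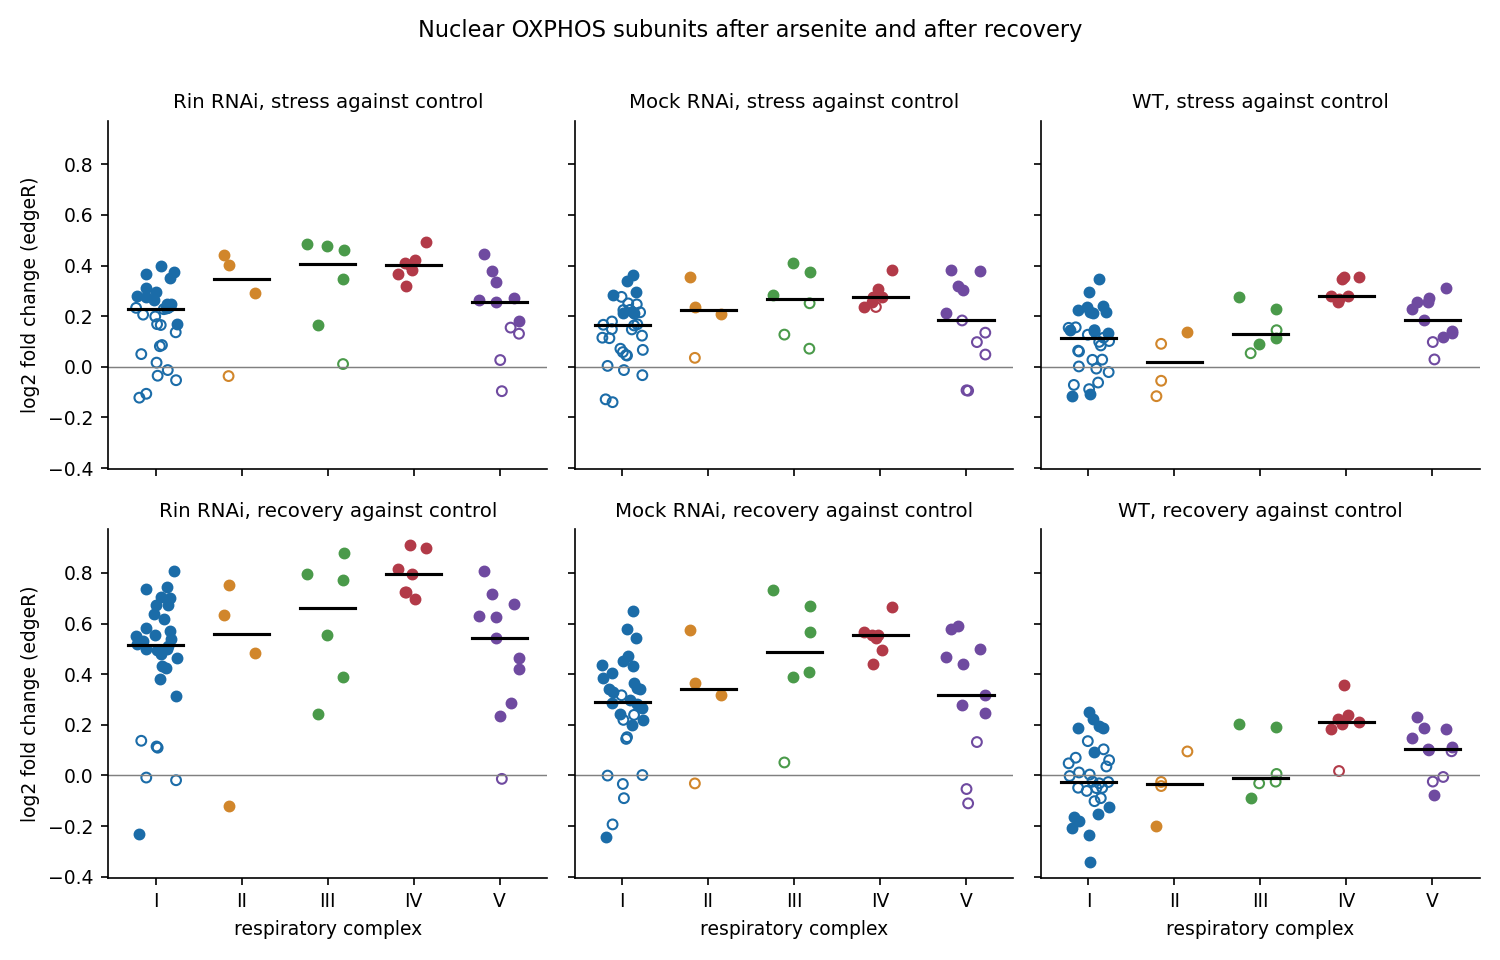
Log2 fold change against control of each tested subunit (y axis) by complex (x axis), for Rin, Mock and WT cells in stress and recovery; filled points passed an edgeR adjusted p under 0.05, open points did not, and black lines are medians. Recovery medians of complex IV were 0.79 in Rin, 0.55 in Mock and 0.21 in WT, and those of complex I were 0.51, 0.29 and -0.02. With libraries scaled by total counts the WT recovery median over the whole set was -0.14.

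In Rin cells most of the set rose in stress, and more of it in recovery. Rin stress against Rin control had 39 of 64 genes higher and none lower, while 30.4% of all 8707 genes tested rose and 30.5% fell, and the median of the 64 was 0.25. With total counts as the only scaling the split was 16 higher and 5 lower, with a median of 0.09 against -0.16 over all genes, and with the length correction 13 higher and 3 lower, where 63.6% and 64.2% of all genes were called in either direction. All 7 complex IV subunits rose, with a median of 0.40, and 5 of 6 in complex III, 3 of 4 in complex II, 7 of 11 in complex V and 14 of 32 in complex I. Rin recovery against Rin control had 55 of 64 higher and 2 lower, while 35.2% of all genes rose and 34.2% fell, and the median was 0.55. With total counts as the only scaling it was 43 higher and 7 lower, with a median of 0.27 against -0.25 over all genes, and with the length correction 15 higher and 4 lower, where 71.1% and 66.7% of all genes were called in either direction. Every tested subunit of complexes III and IV rose, with medians of 0.66 and 0.79, as did 10 of 11 in complex V, 3 of 4 in complex II and 26 of 32 in complex I. The 7 core subunits of complex I had 3 higher and 1 lower, with a median of 0.11, against 23 higher, none lower and a median of 0.55 among its accessory subunits.

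COX5B had 238, 222 and 198 CPM in Rin recovery and 169.8, 166 and 160.2 CPM in Rin stress, against 119, 118 and 121 CPM in Rin control. The 3 groups did not overlap, and both steps passed the test (stress log2 fold change 0.49, SE 0.077, edgeR adjusted p = 8.85e-06, and recovery log2 fold change 0.90, SE 0.077, edgeR adjusted p = 6.12e-10). COX7A rose by 0.38 in stress and 0.79 in recovery on the log2 scale, and COX4 by 0.42 and 0.70. ATPsynCF6 rose by 0.45 and 0.81. ATPsynC was called higher in stress, at 0.18, a call lost without Rin control replicate 1 (0.16) or Rin stress replicate 2 (0.14), and in recovery, at 0.42. ATPsynC was not called in stress with total counts as the only scaling (0.01), and the length correction turned it to -0.080 in stress and -0.14 in recovery. In that fit COX7A was not called in stress (0.05), while COX5B, COX4 and ATPsynCF6 kept both calls, at 0.13 to 0.28.

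UQCR-C1 had 516, 541 and 512 CPM in Rin recovery and 477, 511 and 502 CPM in Rin stress, against 359, 372 and 351 CPM in Rin control. Every recovery library lay above every stress library, the nearest pair almost level, and both groups lay above all controls (stress log2 fold change 0.48, SE 0.071, edgeR adjusted p = 4.65e-06, and recovery log2 fold change 0.55, SE 0.071, edgeR adjusted p = 4.04e-07). SdhD had 77.2, 63.4 and 65.5 CPM in recovery and 62.0, 61.5 and 57.3 CPM in stress, against 44.2, 47.4 and 43.0 CPM in control (stress log2 fold change 0.44, SE 0.086, edgeR adjusted p = 0.000121, and recovery log2 fold change 0.63, SE 0.086, edgeR adjusted p = 8.71e-07). ND-MLRQ had 238, 180.0 and 172 CPM in Rin recovery, against 119, 119 and 118 CPM in control, with 1 recovery library well above the others (log2 fold change 0.75, SE 0.099, edgeR adjusted p = 1.23e-06). It turned to -0.020 and was not called with the length correction, whereas UQCR-C1 and SdhD kept both calls. The 2 genes called lower in recovery were ND-75 (log2 fold change -0.23) and SdhA (-0.12, 2R:19391863-19395971, minus strand). Neither was called with the length correction, ND-75 at -0.02 and SdhA at 0.042. The SdhA call was also lost without Rin control replicate 1 (-0.11), Rin control replicate 2 (-0.13), Rin control replicate 3 (-0.11), Rin recovery replicate 1 (-0.10) or Rin recovery replicate 2 (-0.10).

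Rin recovery set directly against Rin stress had 40 of 64 genes higher and none lower, while 14.2% of all genes were higher and 15.8% lower, and the median was 0.30. They were 20 subunits of complex I, 2 of complex II, 4 of complex III and all 7 of complex IV, with 7 of 11 in complex V. Leaving out Rin recovery replicate 1 took the count to 21 and Rin stress replicate 3 to 24, and the length correction took it to 0, with 9.89% of all genes called in either direction.

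In Mock cells the set also had more genes called higher in recovery than in stress, and complex IV led again. Mock stress against Mock control had 25 of 64 genes higher and none lower, while 29% of all genes rose and 29.7% fell, and the median of the 64 was 0.21. Without Mock control replicate 2 the count was 15 and without Mock stress replicate 1 it was 39, and with total counts as the only scaling it was 6 higher and 8 lower, with a median of 0.04 against -0.16 over all genes, of which 62.4% were called in either direction. With the length correction 8 were higher and 4 lower, where 62.8% of all genes were called. The share over all genes is not given for the fits that left out a library. Complex IV had 6 of 7 subunits higher, complex III 3 of 6, complex II 3 of 4, complex V 5 of 11 and complex I 6 of 32, none of them core subunits. Mock recovery against Mock control had 47 higher and 1 lower, while 33% of all genes rose and 32.6% fell, and the median was 0.36. With total counts as the only scaling it was 24 higher and 11 lower, with a median of 0.11 against -0.23 over all genes, and with the length correction 9 higher and 10 lower, where 68.9% and 65.9% of all genes were called in either direction. All 7 subunits of complex IV rose, with a median of 0.55, and 5 of 6 in complex III, 3 of 4 in complex II, 8 of 11 in complex V and 21 of 32 in complex I.

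COX7A had 441, 396 and 407 CPM in Mock recovery and 319, 415 and 316 CPM in Mock stress, against 312, 273 and 267 CPM in Mock control (stress log2 fold change 0.31, SE 0.085, edgeR adjusted p = 0.00373, and recovery log2 fold change 0.55, SE 0.085, edgeR adjusted p = 6.50e-06). Both groups lay above all controls, and 1 stress library reached the level of recovery. COX7A was not called with the length correction, at 0.04 in stress and 0.03 in recovery, nor in stress with total counts as the only scaling (0.14). COX5B rose by 0.38 in stress and 0.66 in recovery on the log2 scale. UQCR-C1 had 507, 461 and 489 CPM in recovery and 439, 573 and 469 CPM in stress, against 392, 368 and 358 CPM in control (stress log2 fold change 0.41, SE 0.071, edgeR adjusted p = 3.55e-05, and recovery log2 fold change 0.39, SE 0.071, edgeR adjusted p = 5.09e-05). UQCR-Q was the highest subunit of Mock recovery, at 0.73, and ND-75 was the one gene called lower, at -0.24, a call lost with the length correction (-0.10). COX5B, UQCR-C1 and UQCR-Q in recovery kept their calls with it. Every gene called higher in Mock was also called higher in Rin, which is 25 of 25 (100%) of the Mock and 64.1% of the Rin list in stress, and 47 of 47 (100%) and 85.5% in recovery. The Rin and Mock responses share no libraries, but they come from the same fit with a shared estimate of the spread. The overlap over all genes was not computed, so it is not known whether this overlap is particular to the set.

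Mock recovery set directly against Mock stress had 10 of 64 genes higher and none lower, while 5.11% of all genes were higher and 4.3% lower. The count rested on single libraries, since it was 0 without Mock recovery replicate 1, 3 without replicate 2 and 5 without replicate 3, and 0, 43 and 1 without Mock stress replicate 1, 2 and 3. With the length correction UQCR-Q alone was called, with 4.92% of all genes. How many of all genes the fits without a library called is not given here.

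Direct comparison of Rin with Mock called none of the 64 genes in control, stress or recovery, where 0.0345%, 0.207% and 0.126% of all genes were called by edgeR's quasi-likelihood test. At an unadjusted p under 0.05 there were 6, 0 and 1 of the 64, and 649, 732 and 994 of 8707 genes. DESeq2 called none of them either. The median difference of the 60 subunits was -0.09 in control, -0.03 in stress and 0.10 in recovery on the log2 scale. In each condition all 60 subunits had a 95% interval inside 2-fold, and 59 had one inside 1.5-fold. The response itself was not called different for any gene of the set, in stress or in recovery (0% of all genes in both, edgeR), with 0 and 16 of the 64 at an unadjusted p under 0.05, against 290 and 749 of 8707 genes. DESeq2 called none and an edgeR fit with no filter on low counts called 1 in recovery. The median of the Rin minus Mock recovery response was 0.19 over the 60 subunits, positive in 56 of them, against a median of -0.01 over all genes. Other short genes shifted the same way: under 700 nt the median was 0.13 for 1437 other genes and 0.21 for 46 subunits. The 95% interval was inside 1.5-fold for 49 and inside 2-fold for 59, and at the median it reached 0.25 on the log2 scale to either side of the estimate.

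COX5B, for example, differed between Rin and Mock by -0.15 in control, -0.04 in stress and 0.09 in recovery, and UQCR-C1 by -0.06, 0.00 and 0.10, none past the test. These libraries differed in rin itself by the amounts given above.

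As a share of all gene counts the whole set stayed near 1%. It took 0.942 ± 0.026% in Rin control, 0.972 ± 0.035% in Rin stress and 1.06 ± 0.050% in Rin recovery (SD, n = 3 each). In Mock it took 0.976 ± 0.051%, 0.966 ± 0.096% and 1.01 ± 0.033%, and in WT 0.986 ± 0.026%, 1.01 ± 0.019% and 0.895 ± 0.015%, in the same order of conditions. The WT recovery libraries all lay below the WT control and stress libraries. Complex IV parted from the total: its share was 0.158% to 0.179% in Rin recovery and 0.132% to 0.143% in Rin stress, against 0.115% to 0.123% in Rin control. In Mock it was 0.152% to 0.164% in recovery and 0.128% to 0.157% in stress, against 0.122% to 0.136% in control, so that stress overlapped both. In WT it was 0.116% to 0.119% in recovery and 0.127% to 0.136% in stress, against 0.108% to 0.117% in control, so that stress lay above control without overlap while recovery overlapped it.

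**Figure D3:**
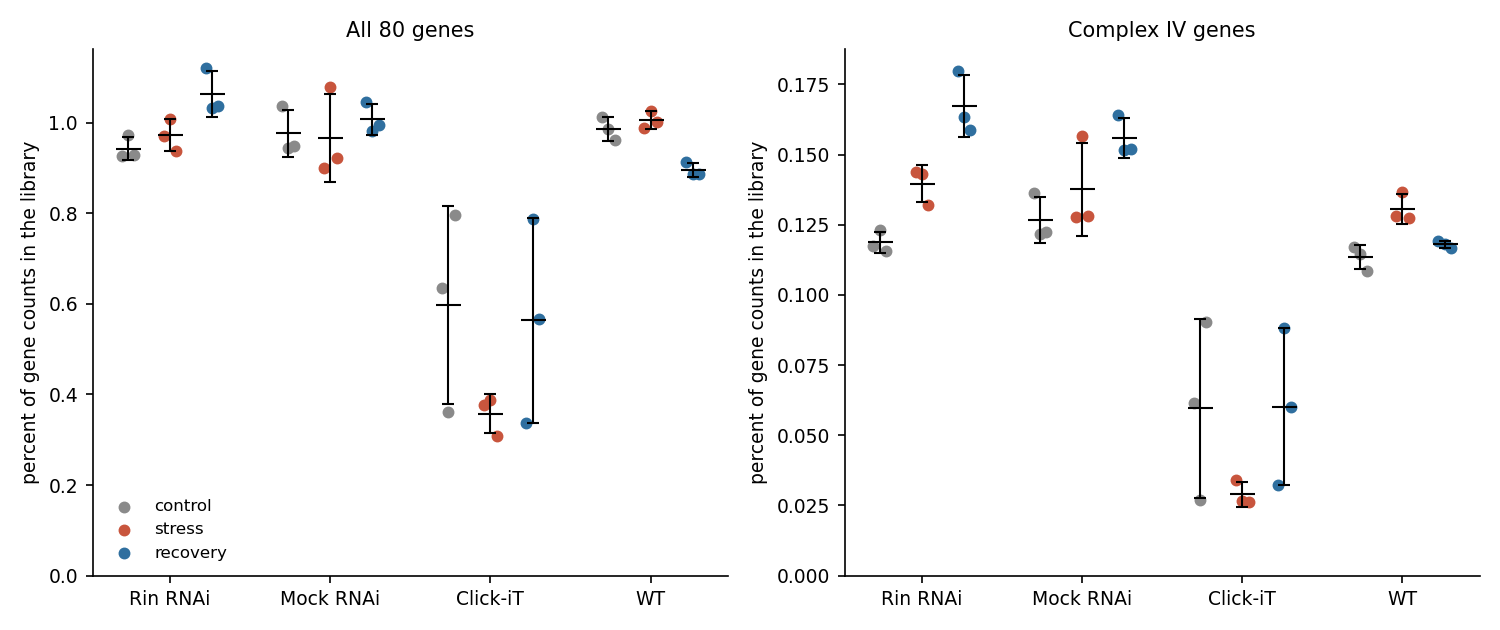
Share of all gene counts, in percent, taken by the whole set (left) and by complex IV (right) in each library of Rin, Mock, Click-iT and WT; points are libraries and bars mean ± SD of 3. The complex IV share in Rin recovery, 0.158% to 0.179%, lies above that of every other Rin group, whereas the Click-iT libraries spread widely.

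Subunit genes are short, and fold changes against control in the poly(A) libraries followed coding length among them, and more weakly among the other genes. The median coding length of the 62 subunits was 454.5 nt, against 1437 nt for the other 7697 genes tested in WT, with ND-75 the longest at 2193 nt. In Rin recovery all 46 subunits under 700 nt rose, with a median of 0.63, while 66.7% of the other 1437 genes of that length rose, with a median of 0.45. Of the 8 subunits from 700 nt to under 1400 nt, 5 rose, and their median was 0.24 against 0.10 in other genes. Of the 6 of 1400 nt and over, 1 rose and 2 fell, with a median of -0.02 against -0.29. In WT stress 29 of 45 subunits under 700 nt rose, with a median of 0.18, while 38.5% of other genes of that length rose, with a median of 0.11. Across subunits, which are not independent replicates, Spearman's rho of the log2 fold change with coding length was -0.73 in Rin recovery (60 subunits) and -0.69 in WT stress (59 subunits). Across the other genes it was -0.47 (8184 genes) and -0.19 (7697 genes). The relation was not the same in every comparison: in WT recovery against control it was -0.57 for the subunits and -0.06 for the other genes, and in WT recovery against stress 0.01 and 0.21. In Click-iT stress against control it had the other sign, at 0.34 for 58 subunits and 0.27 for 6227 other genes.

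**Figure D4:**
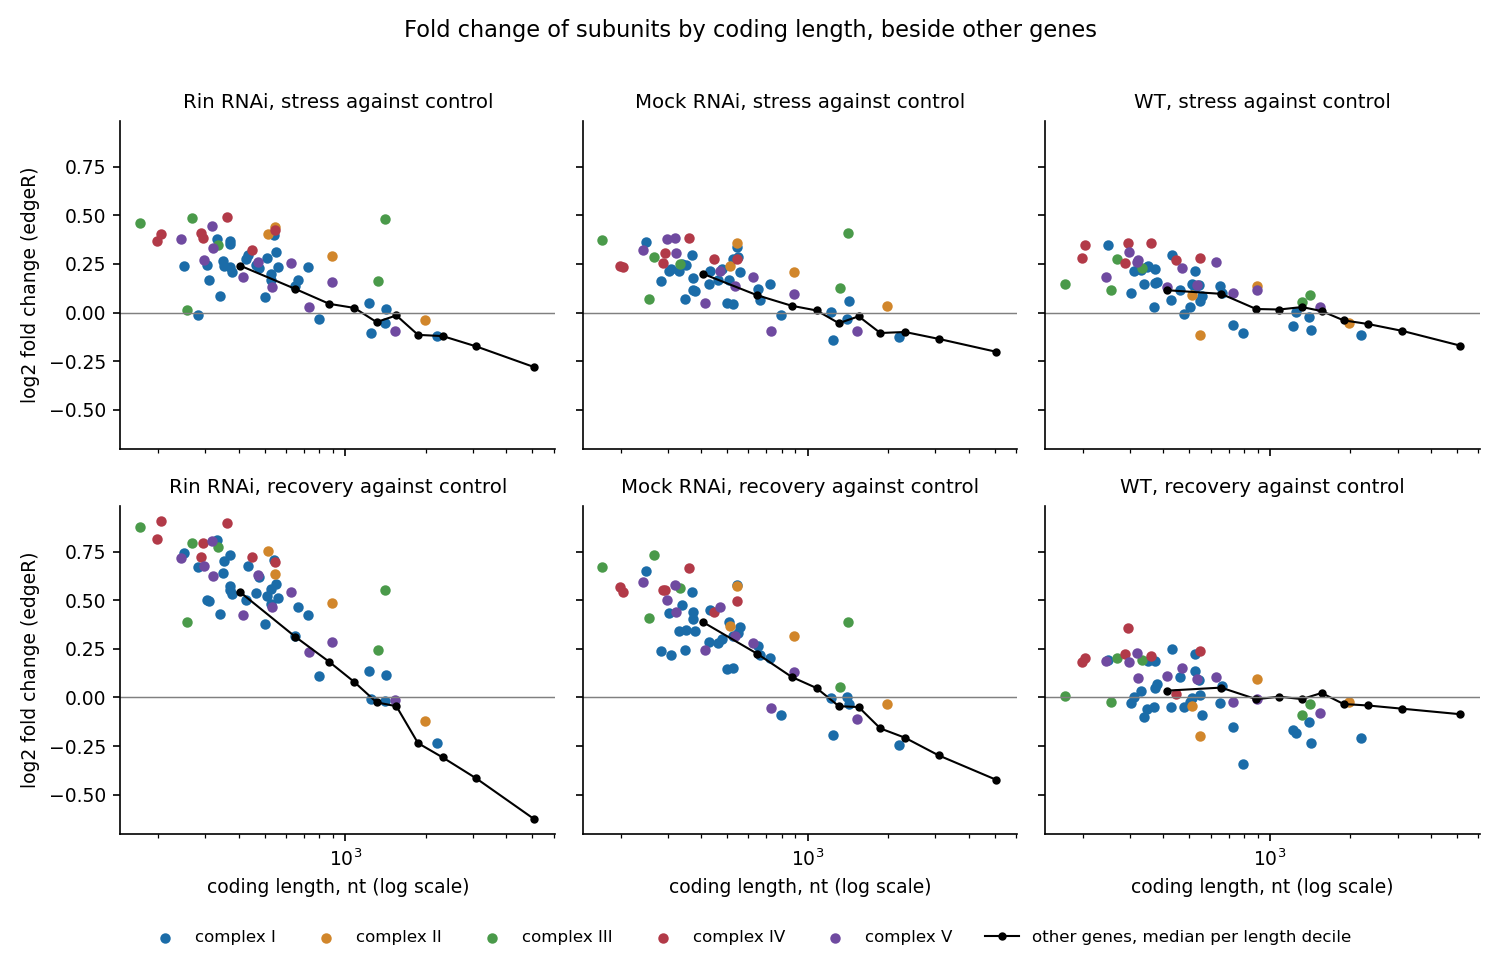
Log2 fold change against control (y axis) by coding length in nt (log x axis) for the subunits, coloured by complex, with the median of all other genes per length decile as a black line. Short subunits tend to lie above long ones, most steeply in Rin recovery (rho -0.73), and the line of the other genes falls there too (rho -0.47).

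The correction for coding length lowered the counts of genes called higher in every stress and recovery comparison with control of Rin, Mock and WT, as given beside each of them. Of the 52 subunits higher in Rin recovery 14 were called in both fits, among them COX4, COX5A, COX5B, COX7A, SdhB, SdhC, SdhD, UQCR-C1, UQCR-C2, ATPsynCF6 and ND-ACP, the mitochondrial acyl carrier protein. Of the 44 in Mock recovery 7 were, namely COX4, COX5B, ND-ACP, SdhB, SdhD, UQCR-C1 and UQCR-Q. Of the 32 in WT stress 12 were, with COX4, COX5A, COX5B and COX7A of complex IV and 5 subunits of complex V among them. COX5B and COX4 were called higher with the correction in Rin, Mock and WT recovery. UQCR-C1, one of the longer subunits, moved little, at 0.55 in Rin recovery with and without the correction. On the TPM scale, which divides by length and by the sum over all genes so treated, the median of 59 subunits ran the other way. It was 198.5, 190.8 and 179.8 TPM in Rin control, stress and recovery, 200.3, 180.0 and 175.2 TPM in Mock, and 190.0, 185.6 and 171.9 TPM in WT. What ties the fold change to length in these libraries was not tested.

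WT and Mock responses were compared in a joint fit of their 18 libraries, also added after the data were examined. Mock had the larger rise in recovery. The difference of the recovery responses, Mock minus WT, was called higher for 30 of 60 subunits and lower for none, while 18.7% of all 8716 genes were higher and 23.6% lower, and the median of the subunits was 0.34. With the length correction 6 subunits were higher and 3 lower, with 39.6% of all genes called in either direction. In stress 2 subunits were higher and none lower, while 13.2% and 13.5% of all genes were, and with the length correction 5 were higher and none lower, with 33.4% of all genes called. The copies COX6AL and COX7AL and the subunit ND-AGGG passed the filter on low counts only with the Mock libraries, so that their differences are not read here. The fit called COX7AL in both conditions, and with it the stress count over the whole set was 3, against 6 without Mock stress replicate 1 and also 6, as 2 higher and 4 lower, without Mock stress replicate 2. Whatever else differed between the Mock and WT sets cannot be told apart from the interference.

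SdhD carried the largest called difference, with 0.50 (SE 0.12, edgeR adjusted p = 0.00386) in stress and 0.81 (SE 0.12, edgeR adjusted p = 1.53e-05) in recovery. In Mock it had 71.2, 63.7 and 69.4 CPM in recovery and 57.9, 66.3 and 51.8 CPM in stress, against 48.5, 47.97 and 41.0 CPM in control, all recovery and stress libraries lying above all controls. In WT, by contrast, recovery and stress lay at or below control, as given above and with 44.7, 46.6 and 47.6 CPM in stress. UQCR-C1 differed by 0.35 (SE 0.096, edgeR adjusted p = 0.00847) in stress and by 0.46 (SE 0.096, edgeR adjusted p = 0.000617) in recovery. The other called subunits in recovery were 14 of complex I, from ND-42 at 0.20 to ND-MWFE at 0.63, SdhB and SdhC of complex II, UQCR-6.4, UQCR-Q, UQCR-11 and UQCR-14 of complex III, COX5A, COX5B, COX6B and COX7C of complex IV, and 4 of complex V. In the annotation used here all of UQCR-14 lies opposite exons of CG32576, and 40.5% of UQCR-6.4 overlaps POSH. Reads of these pairs cannot be told apart without strand. UQCR-14 still had 20825 counts over the poly(A) libraries, and how its overlap was handled in counting is not known. Several calls were lost without a single library, including those of ND-42, ND-B14, ND-PDSW, SdhB and ATPsynD, each in 6 or 9 of 12 such fits, and those of ATPsynCF6, ND-18, ND-B17.2, SdhC and UQCR-14 in 2 to 4. With the length correction ND-ACP, ND-MWFE, ND-SGDH, SdhD and UQCR-C1 were the 5 subunits still called among the 30.

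In the Click-iT captures no gene of the set was called in stress or recovery (0% of all 6558 genes tested, edgeR). At an unadjusted p under 0.05 there were 19 of 58 subunits in stress, all lower, against 944 of 6558 genes. DESeq2 called none in stress and 1 in recovery, where it called 2.04% and 6.53% of all genes. Limma voom with sample weights called 26 lower in stress and none in recovery, where it called 19.5% and 7.26% of all genes. The median log2 fold change of the subunits was -0.88 in stress, negative in 57 of 58, against -0.01 over all genes, and 0.14 in recovery. ATPsynbeta had 498, 525 and 466 CPM in Click-iT stress, against 673, 425 and 818 CPM in Click-iT control (log2 fold change -0.31, SE 0.31, edgeR adjusted p = 0.654). COX5B had 37.3, 30.5 and 28.2 CPM in Click-iT stress, against 68.7, 23.9 and 103 CPM in control (log2 fold change -0.95, SE 0.51, edgeR adjusted p = 0.4). The share of gene counts taken by the whole set was 0.376%, 0.388% and 0.308% in Click-iT stress, against 0.634%, 0.362% and 0.796% in Click-iT control. Reads with several alignments made up 84.5%, 71.6% and 71.6% in those stress libraries and 91.7%, 70.2% and 94.2% in the controls. The control library with the fewest such reads thus had a share like those of stress. In recovery the shares were 0.336%, 0.788% and 0.566%, at 76.3%, 92.5% and 88.4%. The part of this difference between libraries in the fold changes was not tested.

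Against the WT response, the Click-iT stress response was lower for all 60 subunits in the joint fit, with a median of -1.27 against -0.03 over all genes. None passed the test (0.0634% of all genes did), although 47 had an unadjusted p under 0.05, against 1387 of 9460 genes. DESeq2 called 26 of the set lower, and 9.92% of all genes in either direction, and limma voom called 55 lower and 1 higher, and 33.9% of all genes. The edgeR count was 24, all lower, without Click-iT control replicate 2, and 27, of which 26 lower, without Click-iT stress replicate 2. How many of all genes those fits called is not given here. Only 1 of the 60 intervals lay within 2-fold, so that the size of the difference is poorly fixed. The uneven alignment of the Click-iT libraries enters this comparison too, and its part was not tested. With the length correction the median over the set was -0.70. In recovery none was called (0.222% of all genes were), the subunit median was -0.20, and limma voom called 2, with 11.7% of all genes. The set's median there was -0.18, but 0.07 with RLE size factors, against -0.20 and 0.08 over all genes, and the count was 1 without Click-iT recovery replicate 2.

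Among the paralog copies the largest change of the whole set was that of ND-51L2, a copy of the NADH-binding subunit ND-51. It had 59, 44 and 57 counts in WT recovery and 10, 11 and 11 in WT stress, against 3, 4 and 2 in WT control, with no overlap between any of the groups (stress log2 fold change 1.82, SE 0.49, edgeR adjusted p = 0.00107, and recovery log2 fold change 4.02, SE 0.33, edgeR adjusted p = 5.14e-17). In Rin it had 18, 47 and 24 counts in recovery and 33, 29 and 56 in stress, against 1, 4 and 4 in control, and in Mock 25, 30 and 48 in recovery and 31, 23 and 28 in stress, against 2, 10 and 4 in control. In those sets stress and recovery overlapped each other. It was called higher in Rin, with log2 fold changes of 3.64 in stress and 3.50 in recovery, and in Mock, with 2.49 and 2.65. ND-51L2 (2R:15296764-15298329, minus strand) lies inside Trpm (2R:15262808-15309368, minus strand), an ion channel gene, and shares no exonic base with it.

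Trpm was higher in the same groups, except that WT stress did not pass the test (log2 fold change 0.18, SE 0.073, edgeR adjusted p = 0.0507). It had 600.3, 637 and 650.5 CPM in WT recovery and 173, 159 and 147 CPM in WT stress, against 125, 148 and 151 CPM in WT control. Its recovery libraries lay far above the rest (log2 fold change 2.17, edgeR adjusted p = 2.39e-12). In Rin it averaged 262 ± 44.5 CPM in recovery and 295 ± 32.2 CPM in stress, against 159 ± 6.84 CPM in control (SD, n = 3 each). In Mock it averaged 262 ± 33.3 CPM in recovery and 278 ± 40.0 CPM in stress, against 147 ± 15.9 CPM in control. In Click-iT ND-51L2 had 126, 7 and 35 counts in recovery and 81, 34 and 725 in stress, against 4, 29 and 7 in control. Depth differed widely between these libraries, so raw counts do not rank the groups. Scaled for depth, ND-51L2 had 317, 22.9 and 204 CPM in recovery and 47.98, 11.3 and 371 CPM in stress. Its control values were 5.19, 19.8 and 10.9 CPM. Trpm had 3323, 337 and 1809 CPM in recovery and 560.3, 254 and 3079 CPM in stress, against 205, 292 and 164 CPM in control. For both genes recovery and stress overlapped. Reads of an unspliced Trpm transcript would also be counted to ND-51L2 where they lie in it, and their part in these counts was not tested.

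**Figure D5:**
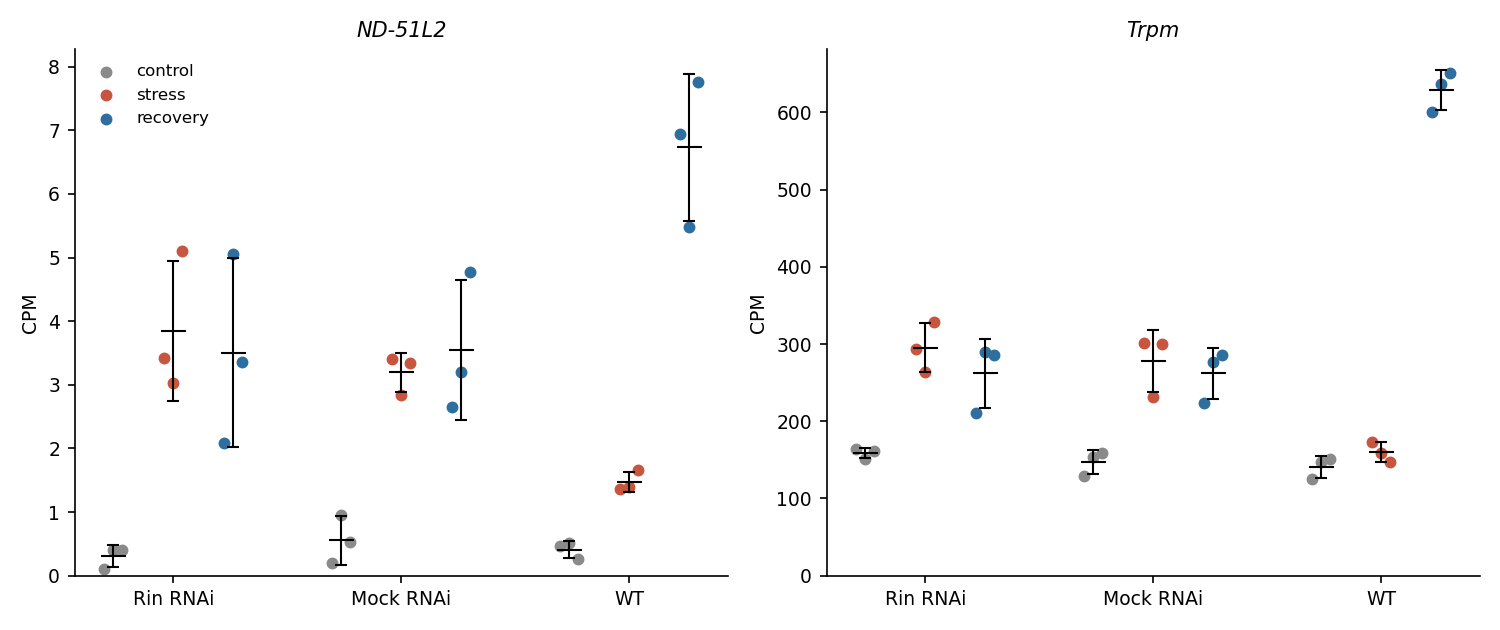
CPM per library of the copy ND-51L2 and of Trpm, in whose span it lies, for Rin, Mock and WT cells in control, stress and recovery. Within WT both genes are highest in recovery, where Trpm has 600.3, 637 and 650.5 CPM, and in Rin and Mock both are higher in stress and recovery than in control.

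COX6AL, a copy of complex IV subunit VIa (2R:15944028-15944567, plus strand), rose in the interference sets and was nearly absent in WT. It had 20, 19 and 25 counts in Rin recovery and 31, 21 and 34 in Rin stress, against 12, 11 and 10 in Rin control (stress log2 fold change 1.36, SE 0.26, edgeR adjusted p = 0.000128, and recovery log2 fold change 1.21, SE 0.28, edgeR adjusted p = 0.000599). The recovery call was lost with the length correction (0.50, edgeR adjusted p = 0.155) and the stress call kept. In Mock it had 22, 30 and 22 in recovery and 20, 17 and 22 in stress, against 8, 8 and 5 in control (log2 fold change 1.64 in stress and 1.79 in recovery). No WT library had more than 2. COX6AL lies inside Cyp4aa1, a cytochrome P450 gene on the same strand, which averaged 40.6 ± 1.29 CPM in Rin recovery and 53.9 ± 4.76 CPM in Rin stress, against 14.6 ± 1.84 CPM in Rin control. In WT, Cyp4aa1 averaged 2.04 ± 0.379 CPM in recovery and 1.59 ± 0.358 CPM in stress, against 0.740 ± 0.380 CPM in control. Here too the part of unspliced reads of the surrounding gene was not tested.

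COX7AL (3R:8343669-8344310, plus strand), a neighbour and copy of COX7A, had 23, 17 and 21 counts in Rin stress, against 7, 5 and 13 in Rin control (log2 fold change 1.26, SE 0.35, edgeR adjusted p = 0.00344), and 22, 11 and 27 in Mock recovery, against 14, 9 and 5 in Mock control (log2 fold change 1.08, SE 0.34, edgeR adjusted p = 0.00804). The Mock call was lost without Mock recovery replicate 3 (0.84) and with the length correction (0.59), and the call in Rin recovery, at 0.89, in 5 of 6 fits that left out 1 library and with the length correction (0.23). In WT it had 2, 2 and 1 counts in recovery and 1, 1 and 1 in stress, against 2, 3 and 6 in control, too few to test. ATPsynepsilonL, a copy of a central stalk subunit, did not pass in any stress or recovery comparison with control.

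Related genes with other symbols, taken from a list chosen with earlier results of these data known, were described in the same way, against the shares of all genes given with each comparison, 35.2% higher and 34.2% lower in Rin recovery, 33% and 32.6% in Mock recovery, 35.2% and 33.5% in WT recovery, and 30.3% and 30% in WT stress. Of 8 tested subunits and cytochromes c, 7 rose and none fell in Rin recovery (median 0.79), 7 rose in Mock recovery (median 0.50), 5 rose and 2 fell in WT stress (median 0.18), and 2 rose and 2 fell in WT recovery (median 0.03). The epsilon subunit of complex V, sun, rose by 1.02 in Rin recovery and 0.37 in WT stress. The catalytic partner of ATPsynbeta, blw, stood at 0.02 in Rin recovery and did not pass the test there, and fell by 0.13 in WT stress. Cyt-c-p, the cytochrome c of somatic cells, rose by 0.71 in Mock recovery.

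Neighbouring mitochondrial functions were described from lists chosen in the same way, and their counts stand against the same shares of all genes. Of 14 genes of the tricarboxylic acid cycle, with SdhA to SdhD left out, 4 rose and 2 fell in Rin recovery (median 0.05), 4 rose and 3 fell in Mock recovery, and 4 rose and 5 fell in WT recovery. Of 12 tested assembly factors, 6 rose and 3 fell in Rin recovery (median 0.19), none rose and 3 fell in Mock recovery, and none rose and 7 fell in WT recovery (median -0.33). Surf1, which helps to assemble complex IV, rose by 0.44 in Rin recovery, while bsf, which binds mitochondrial transcripts, fell by 0.69 on the log2 scale. Of 13 regulators of mitochondrial genes, 3 rose and 6 fell in Rin recovery, 2 rose and 7 fell in Mock recovery, and 2 rose and 6 fell in WT recovery.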

How the data were processed

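The authors deposited counts of reads per gene, 1 file per library, for 17137 symbols and 5 summary lines, which were left out of library sizes. Per the submitters' processing notes, STAR 2.5.3, HTSeq and DESeq2 were used with build dm6. The annotation version, counting settings and strand use are not given in the sources used here, and the kit named in the labels does not mark strand. The authors' 12 deposited comparison tables were not used here.

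From the deposited counts, edgeR 4.0.16 in R 4.3.3 fitted group means with TMM scaling, filterByExpr and the robust quasi-likelihood test, on all genes: Rin with Mock (18 libraries), Click-iT (9), WT (9), WT with Click-iT (18), and Mock with WT (18, added after the data were examined). Tests were two-sided, and calls were made at an adjusted p under 0.05 (Benjamini-Hochberg, over all genes). CPM were TMM-scaled within each set. TPM used the exonic length, and positions, overlaps and coding lengths came from the Ensembl annotation of this build, which matched 80 of 80 genes of the set and 99.6% of all symbols. The 95% intervals come from the same fits. The procedure was tested on simulated data.

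The genes, the lists and the rule for naming genes were chosen with earlier results of these data known. Named genes were the core or catalytic subunits, the highest and lowest subunit per complex in WT stress and recovery with a mean of at least 10 CPM, genes with a called change of at least 2-fold, and genes called in a difference of responses, which for Mock minus WT were partly summarised. Genes of the lists, host genes and overlapping genes named beside them were chosen after their values were seen.

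Alternatives were RLE size factors, total library size, no filter, DESeq2 1.42.0, fits of only the groups compared, a block for the replicate number, leaving out each library, limma 3.58.1 (voom with sample weights) for Click-iT, and, added after the data were examined, offsets for each library's loess trend with coding length (span 0.5, prior count 2). No pair of replicates agreed within sampling noise, but some WT pairs came close to it. Chi-square per degree of freedom, larger for less agreement, was 1.19 to 25.7 in poly(A) and 3.42 to 83.9 in Click-iT pairs. The lowest value was that of WT control replicates 2 and 3. Mock stress replicate 2 had 25.7 and 18.7 with the other replicates, which had 1.86 between them. Precision follows the counts given with the groups, and reads without molecular identifiers are not independent molecules. Figures were drawn with Python 3.11.15 and matplotlib 3.10.9.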

Additional observations from a re-analysis of the deposited data

Results flagged for a closer look

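Responses that differed between Mock and WT cells were flagged, by a test of the difference itself in a fit of both sets that was added after the data were examined. Genes that passed the filter on low counts only with the Mock libraries were left out. In stress 2 genes of the set differed, SdhD by 0.50 on the log2 scale and UQCR-C1 by 0.35, each as Mock minus WT. In recovery 30 genes differed, all higher in Mock. SdhD differed by 0.81, ND-MWFE by 0.63 and ND-ACP by 0.52, and these 3 were also called with the correction for coding length. Whatever else differed between the Mock and WT sets cannot be told apart from the interference.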

How the results depend on the processing

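Counts below are genes of the set called in either direction, with COX7AL included in Mock minus WT. Where the share over all genes is not given above for a fit, its count is not read as particular to the set. That holds for every fit that left out a library. With the coding-length correction they were 16 in Rin stress, 19 in Rin recovery, 0 in Rin recovery against stress, 12 in Mock stress, 19 in Mock recovery, 1 in Mock recovery against stress, 16 in WT stress, 14 in WT recovery against stress, and 6 and 10 in Mock minus WT stress and recovery. With total library size they were 21 in Rin stress, 26 in Rin recovery against stress, 14 in Mock stress, 5 in Mock recovery against stress and 43 in WT recovery against stress. DESeq2 gave 11 in WT recovery against stress, 26 in Click-iT minus WT stress and 1 in Click-iT recovery. With no filter there were 18 in Mock recovery against stress and 1 in Rin minus Mock recovery. With only the groups compared there were 15 in Mock stress, 0 in Mock recovery against stress and 1 in Click-iT recovery. Limma voom gave 26 in Click-iT stress, and 56 and 2 in Click-iT minus WT stress and recovery. The other counts under these alternatives and RLE size factors stayed within 1.5 times.

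Leaving out 1 library gave 21 to 38 in Rin recovery against stress, 15 to 39 in Mock stress, 0 to 43 in Mock recovery against stress, 12 to 23 in WT recovery against stress, 2 to 6 in Mock minus WT stress, and 0 to 27 and 0 to 1 in Click-iT minus WT stress and recovery. It gave 30 to 40 in Rin stress, 53 to 57 in Rin recovery, 44 to 49 in Mock recovery, 30 to 35 in WT stress, 27 to 33 in WT recovery and 22 to 37 in Mock minus WT recovery.

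Log2 fold changes that reversed under the coding-length correction were, in Rin recovery, ATPsynB -0.081, ATPsynC -0.14, ATPsynG -0.013, ND-MLRQ -0.020 and SdhA 0.042. In Rin stress they were ATPsynC -0.080, ATPsynG -0.056 and ND-MLRQ -0.13, and in Rin recovery against stress ATPsynC -0.058, COX6B -0.059 and UQCR-Q -0.075. In Mock recovery they were ATPsynC -0.17, ATPsynG -0.022 and ND-20 -0.043, in Mock recovery against stress ATPsynC -0.013, and in Mock stress COX6B -0.014 and UQCR-Q -0.0024. ATPsynC was -0.0027 in WT stress. In Mock minus WT recovery ATPsynCF6 and ATPsynD were -0.026 each, ATPsynE -0.028, COX6B -0.066 and COX7C -0.089. With total library size the reversed values were ATPsynB -0.046 and UQCR-C2 -0.038 in Rin recovery, UQCR-C2 -0.0020 in Rin stress, ND-20 -0.024 in Mock recovery, ATPsynC -0.064 in WT recovery and UQCR-C1 -0.0085 in WT stress. The cause was not tested.

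The replicate number as a block gave 39 in Rin stress, 57 in Rin recovery, 38 in Rin recovery against stress, 24 in Mock stress, 48 in Mock recovery, 11 in Mock recovery against stress, 33 in WT stress, 29 in WT recovery, 20 in WT recovery against stress, 3 and 32 in Mock minus WT stress and recovery, and 0 in all others. Libraries of the same number did not deviate together, with correlations from -0.41 to 0.35 in Rin and Mock, -0.35 to 0.61 in Click-iT and -0.08 to 0.05 in WT, and 6 of 18, 2 of 9 and 2 of 9 libraries correlated best with their own number. Low Click-iT depth limits what could be called there. A planned description of promoter motifs was not run.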
